A study of Zea mays with 10 samples.

Results

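The genes opr5, opr7 and opr8 encode oxophytodienoate reductases of maize, and they were followed in leaf pools from weedy and control field plots. They were found as the array elements whose platform annotation gives exactly 1 gene and whose symbol or synonym is opr5, opr7 or opr8. This rule took 4 elements of 19200 on the array, or 4 of the 1800 with exactly 1 annotated gene. One element stands for opr5 (gene ID 732829, GRMZM2G087192), 2 for opr7 (gene ID 732830, GRMZM2G148281) and 1 for opr8 (gene ID 732734, GRMZM2G082087). All 4 passed the filter on missing values described below.

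Weedy plots had been sown with velvetleaf, a broadleaf weed, and control plots were kept largely weed free by hand. Maize in both grew in the field without added water or fertilizer, and leaf from 4 plants of a plot was pooled. There were 4 weedy and 4 control plots, and each of 10 arrays compared 1 weedy with 1 control pool, with weedy RNA in the dye Cy5 on 5 arrays and control RNA in Cy5 on the other 5. The labels used here give no maize line, plant age or time in the season, and a ratio between leaf pools gives no level from which leaf markers could be checked.

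Oxophytodienoate reductases are flavin enzymes related to old yellow enzyme. In jasmonate synthesis, a lipoxygenase, an allene oxide synthase and an allene oxide cyclase in the chloroplast turn linolenic acid into oxophytodienoic acid. A reductase in the peroxisome then saturates its ring, and shortening of the side chain gives jasmonic acid, a hormone of wounding, insect defence and flower development. In maize, opr7 and opr8 are closely related copies that serve this step, and plants that lack both are poor in jasmonate and bear feminised tassels. opr5 is a further member of the family.

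The deposited values are log ratios of the 2 dyes with no stated base, read here as log2, and each array was centred on its median. A turned ratio is the centred value with its sign kept where weedy RNA was in Cy5 and changed where control RNA was in Cy5. It is weedy over control where Cy5 is the numerator of the deposited ratio, and every sign is the opposite where Cy3 is. The deposit does not state whether the ratios already ran weedy over control on every array, so the fitted ratios of the elements and genes are also given on that reading. Values by plot and differences between elements are given on the Cy5 over Cy3 reading alone. The number of an array, within its dye orientation, is only a name.

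The series held 9965 to 17383 elements with a value per array. The array with the fewest was array 5 with control RNA in Cy5, which set weedy plot 3 against control plot 4. It had no value for any of the 4 elements. Each element thus had values on 9 arrays, 5 with weedy RNA in Cy5 and 4 with control RNA in Cy5, and 9 arrays limit the precision of every ratio below. No signal value was used here, so the brightness of these elements is unknown.

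None of the 4 elements differed between weedy and control leaves past an adjusted p of 0.05. On the Cy5 over Cy3 reading, 0.0123% of the 16201 elements tested passed. An unadjusted p under 0.05 was found for 0 of the 4 elements and for 12.1% of all elements. Turned ratios were negative for 3 of the 4, with a median of -0.079 over the 4 elements, against a median of 0.013 and 46.4% negative over all elements. The element farthest from 0 was 1 of the 2 for opr7, element 9752, and the other opr7 element lay close to 0 on the opposite side.

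opr7 was measured by element 9752, annotated from 2 expressed sequence tags, and element 3635, annotated from 1. Element 9752 had centred deposited ratios of 0.051, -0.57, -0.67, -0.34 and -0.62 on arrays 1 to 5 with weedy RNA in Cy5, and of 0.52, -0.12, -0.31 and -0.031 on arrays 1 to 4 with control RNA in Cy5. Of the 5 arrays with weedy RNA in Cy5, 4 lay below every array with control RNA in Cy5, and array 1 lay within their range. The mean was -0.43 ± 0.30 (SD, n = 5) with weedy RNA in Cy5 and 0.014 ± 0.36 (SD, n = 4) with control RNA in Cy5. The fitted turned ratio was -0.22 (SE 0.11, 95% interval -0.46 to 0.018, adjusted p = 0.444 in limma), negative on 5 of 9 arrays. Its size exceeded or equalled that of 83.4% of all elements, and it did not pass the threshold.

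Element 3635, also for opr7, had centred deposited ratios of -0.26, -0.079, 0.42, 0.063 and 0.16 on arrays 1 to 5 with weedy RNA in Cy5, and of -0.18, -0.22, 0.36 and 0.029 on arrays 1 to 4 with control RNA in Cy5. The orientations overlapped over nearly their whole range. The mean was 0.060 ± 0.26 (SD, n = 5) with weedy RNA in Cy5 and -0.0027 ± 0.26 (SD, n = 4) with control RNA in Cy5. The fitted turned ratio was 0.031 (SE 0.099, 95% interval -0.18 to 0.24, adjusted p = 0.918 in limma), positive on 5 of 9 arrays.

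opr8, the close copy of opr7, was measured by element 14035. It had centred deposited ratios of 0.013, 0.28, -0.064, -0.27 and 0.31 on arrays 1 to 5 with weedy RNA in Cy5, and of -0.13, 0.43, 0.071 and 0.13 on arrays 1 to 4 with control RNA in Cy5. Both orientations held values on either side of 0 and overlapped. The mean was 0.054 ± 0.25 (SD, n = 5) with weedy RNA in Cy5 and 0.12 ± 0.23 (SD, n = 4) with control RNA in Cy5. The fitted turned ratio was -0.033 (SE 0.097, 95% interval -0.24 to 0.18, adjusted p = 0.911 in limma), negative on 5 of 9 arrays. Whether transcripts of opr7 and opr8 bind each other's elements was not tested, since no probe sequence was used here.

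opr5 was measured by element 4726. It had centred deposited ratios of -0.59, 0.090, -0.34, -0.32 and -0.49 on arrays 1 to 5 with weedy RNA in Cy5, and of -0.10, -0.30, 0.043 and 0.047 on arrays 1 to 4 with control RNA in Cy5. Arrays 1, 3, 4 and 5 with weedy RNA in Cy5 lay below all arrays with control RNA in Cy5, and array 2, with weedy plot 3, lay above them all. The mean was -0.33 ± 0.26 (SD, n = 5) with weedy RNA in Cy5 and -0.079 ± 0.16 (SD, n = 4) with control RNA in Cy5. The fitted turned ratio was -0.12 (SE 0.094, 95% interval -0.33 to 0.078, adjusted p = 0.610 in limma), negative on 6 of 9 arrays.

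**Figure D1:**
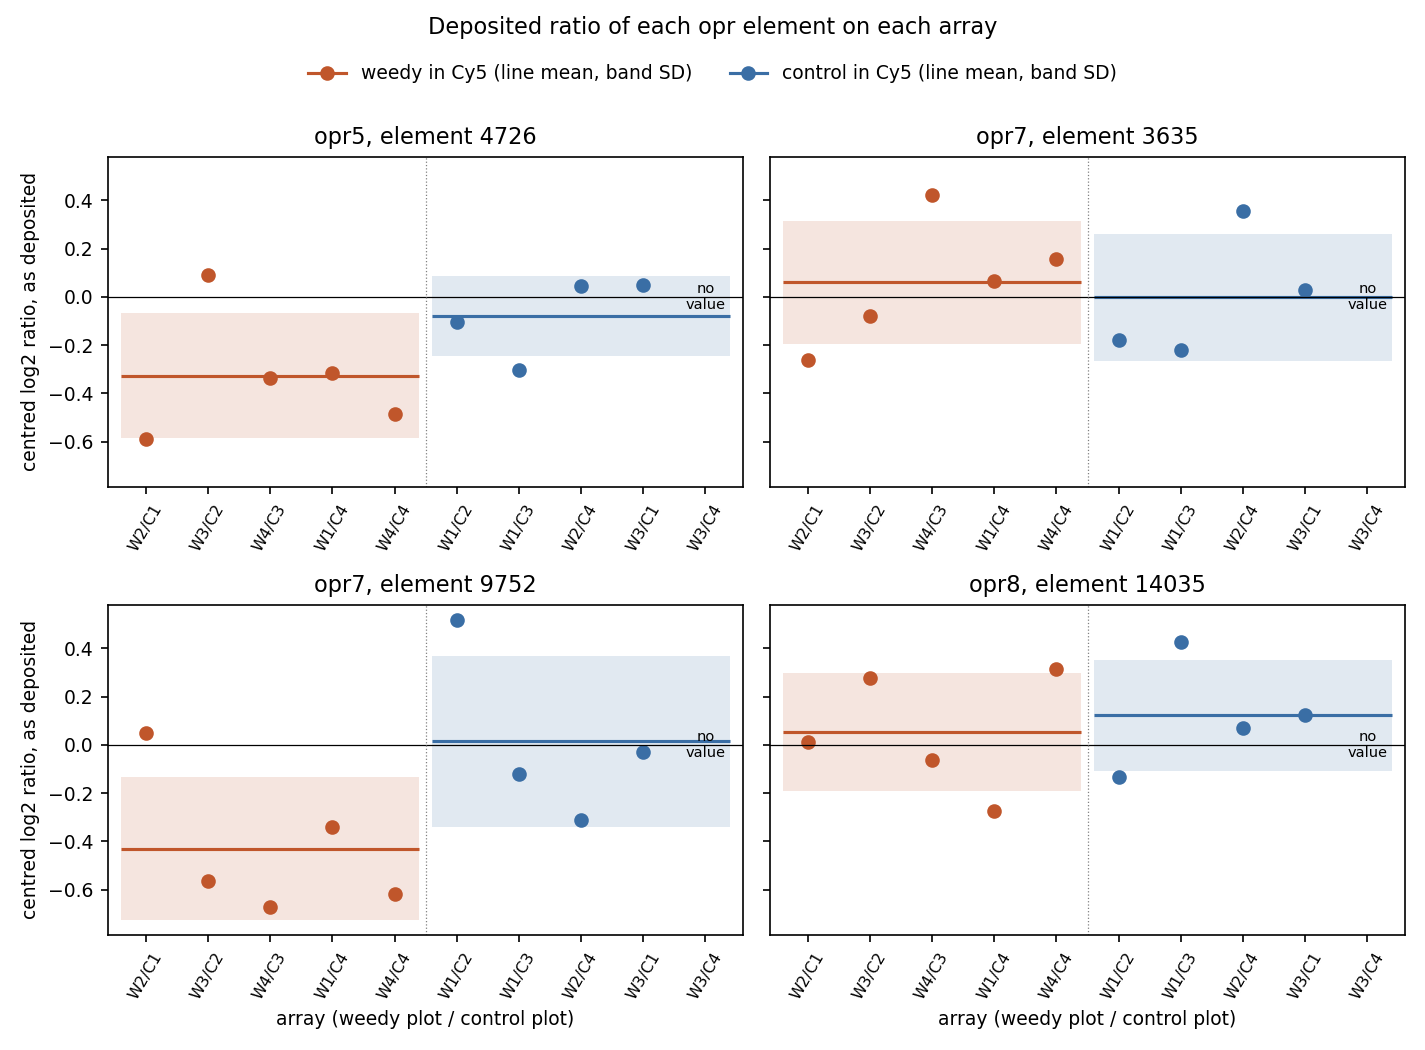
Centred deposited log2 ratio (vertical axis) of the 4 elements on each of the 10 arrays (horizontal axis, named by weedy plot W and control plot C). Arrays with weedy RNA in Cy5 stand left of those with control RNA in Cy5, the line is the mean of an orientation and the band 1 SD on either side. For opr7 element 9752 the mean is -0.43 with weedy RNA in Cy5 and 0.014 with control RNA in Cy5, and the last array has no value for any element.

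Between arrays, 3 of the 4 elements varied less than most elements on the array. The SD between arrays in the fit was 0.22 for opr5, 0.25 for opr7 element 3635 and 0.23 for opr8, against a median of 0.31 over all elements. For opr7 element 9752 it was 0.31, near that median. The 95% intervals together ran from -0.46 to 0.24 in log2 ratio. Larger changes than these lay outside the interval of every one of the 4 elements on this reading, at the fitted plot variance. With plot variance equal to array variance the SE rose to 0.16 for opr7 element 9752 and to 0.13 for element 3635, which gives wider bounds.

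If the deposited ratios already ran weedy over control on every array, the mean of the centred values takes the place of the treatment. On that reading 0% of all elements passed an adjusted p of 0.05, and 9.09% had an unadjusted p under 0.05. Of the 4 elements 0 passed, and 1 had such an unadjusted p. That element was opr5, at -0.20 (SE 0.090, 95% interval -0.40 to -0.0092, limma unadjusted p = 0.0414, adjusted p = 0.537). Its centred values were negative on 6 of 9 arrays. The dye term of opr5 on the Cy5 over Cy3 reading was also -0.20 (limma unadjusted p = 0.0401), since both describe the mean of these values. On the already turned reading the estimated ratio of plot to array variance was 0, so arrays that share a pool entered as independent. With run medians (described below) removed, a combination added after the data were seen, opr5 stood at -0.063 on this reading (limma unadjusted p = 0.398). opr7 stood at -0.21 (SE 0.11, 95% interval -0.44 to 0.022) on element 9752 and at 0.029 (SE 0.096, 95% interval -0.18 to 0.23) on element 3635. opr8 stood at 0.088 (SE 0.092, 95% interval -0.11 to 0.29). Its sign was thus opposite on the already turned and the Cy5 over Cy3 readings, while those of opr5 and both opr7 elements were the same. Where Cy3 is the numerator, every turned sign is the opposite and the already turned values stay. The sign of opr8 would then be the same, and those of opr5 and both opr7 elements opposite.

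**Figure D2:**
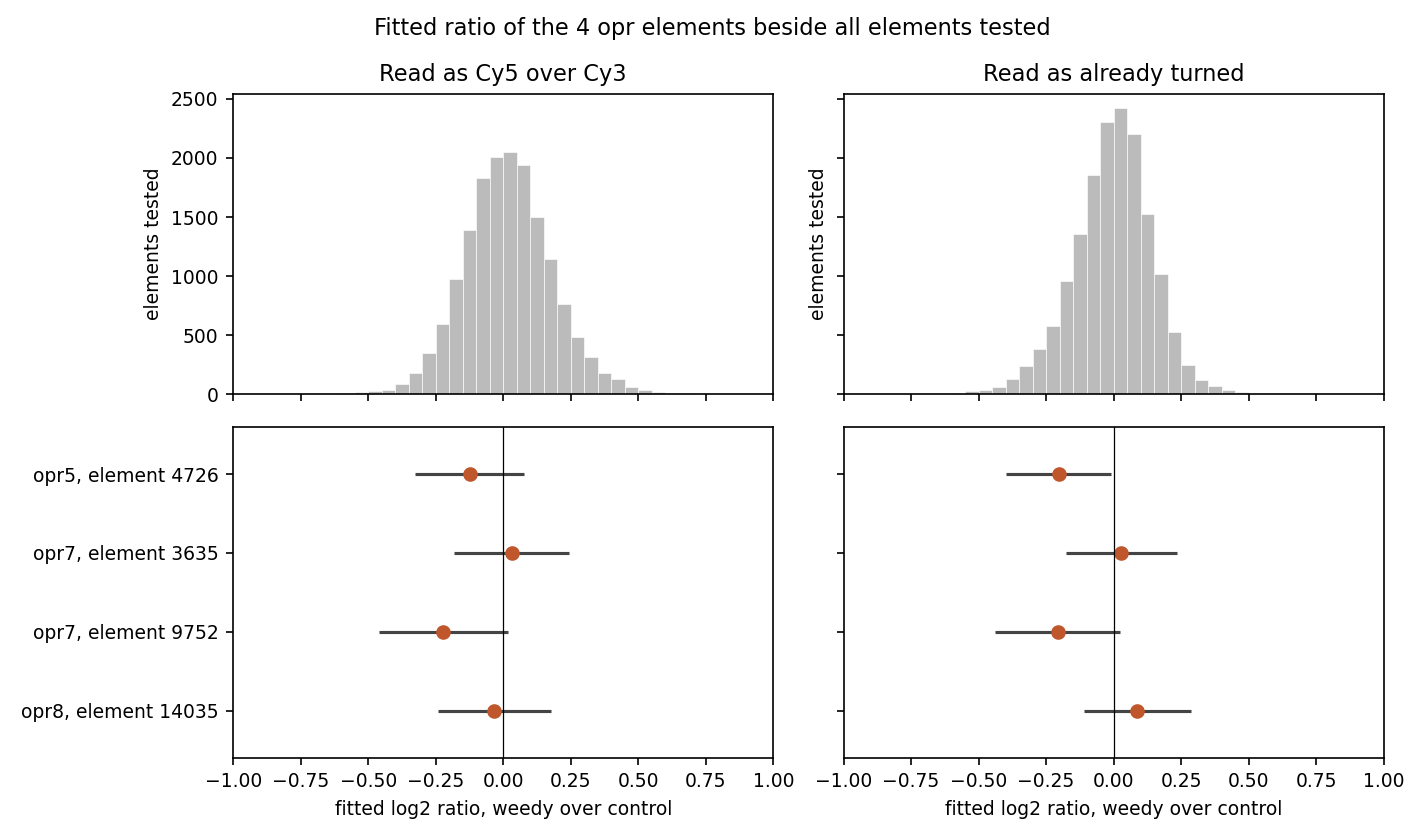
Upper panels: number of elements tested (vertical axis) by fitted log2 ratio (horizontal axis, values beyond 1 in size placed in the end bins). Lower panels: the 4 opr elements, with points for the fitted ratio and lines for the 95% interval, on the Cy5 over Cy3 reading (left) and read as already turned (right). The interval of opr5 on the already turned reading, -0.40 to -0.0092, is the 1 interval of the 8 that does not hold 0.

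The plots were compared through the arrays that used each pool, on the Cy5 over Cy3 reading. A pool contributed 2 or 3 arrays to these elements, and each array enters under both its weedy and its control plot. Weedy plot 4, which was in Cy5 on both of its arrays, gave the lowest mean turned ratios of the weedy plots for opr7 element 9752 (-0.67 and -0.62 on its 2 arrays) and for opr5 (-0.34 and -0.49). For opr7 element 3635 the same 2 arrays gave the highest mean of the weedy plots, at 0.42 and 0.16.

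Weedy plot 2 had the reverse order. Its 2 arrays gave turned ratios of 0.051 and 0.31 for opr7 element 9752, and of -0.26 and -0.36 for opr7 element 3635. It was the 1 weedy plot with a positive mean for element 9752 and had the lowest mean for element 3635. For opr5 the 2 arrays stood at -0.59 and -0.043, both negative.

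Within each of weedy plots 1 and 3, arrays held both signs for opr7 element 9752 and for opr5, and 1 sign for opr7 element 3635. The 3 arrays of weedy plot 1 gave turned ratios for opr7 element 9752 of -0.34 with weedy RNA in Cy5, and of -0.52 and 0.12 with control RNA in Cy5. Those of element 3635 were all positive, at 0.063, 0.18 and 0.22. For opr8 the means were -0.19 over weedy plot 1, -0.029 over weedy plot 2, 0.077 over weedy plot 3 and 0.12 over weedy plot 4, and 4 of 4 weedy plots held arrays of both signs. Among the control plots, plot 2 had the lowest mean for opr7 element 9752, with turned ratios of -0.57 and -0.52. The same plot had the highest mean for opr5, at 0.090 and 0.10, and for opr8, at 0.28 and 0.13.

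**Figure D3:**
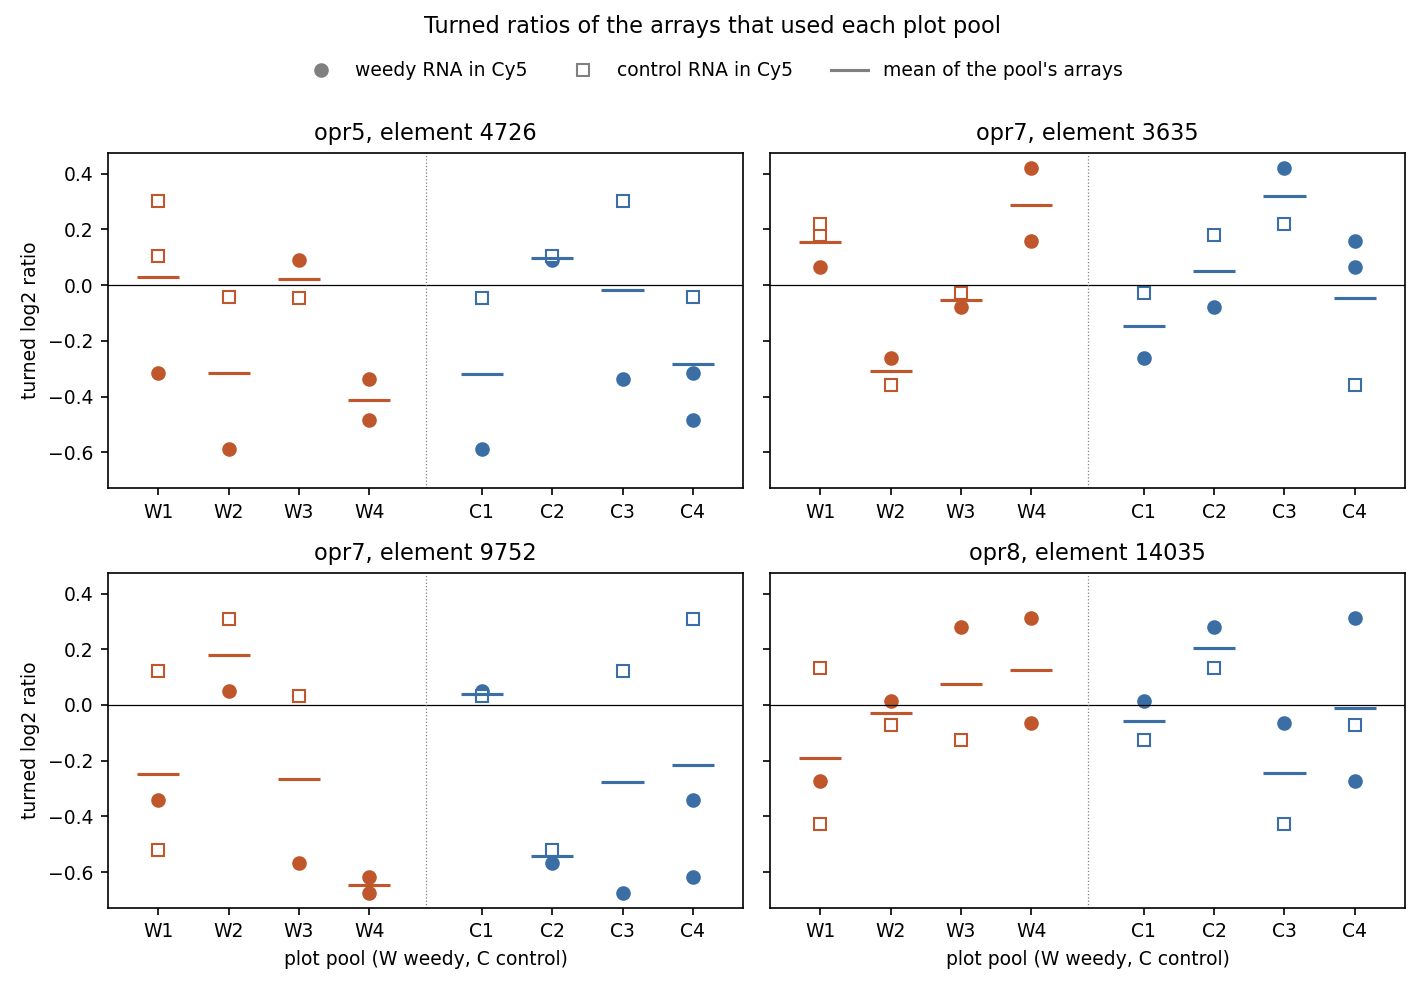
Turned log2 ratio (vertical axis) of the 4 elements on the arrays that used each plot pool (horizontal axis, W weedy plots 1 to 4, then C control plots 1 to 4). Filled circles had weedy RNA in Cy5, open squares control RNA in Cy5, and lines are means over a pool's arrays; each array appears once under its weedy and once under its control plot. For opr7, weedy plot 4 has a mean of -0.65 on element 9752 and of 0.29 on element 3635.

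After centring, the ratios of the 2 opr7 elements had opposite signs on 7 of 9 arrays, 4 of 5 with weedy RNA in Cy5 and 3 of 4 with control RNA in Cy5. Over the 9 arrays, which share plots and so are not fully independent, Pearson's r was -0.64 (exact permutation p = 0.0517, two-sided) and Spearman's rho was -0.73 (exact permutation p = 0.0311, two-sided). Adjusted over the 6 pairs of the 4 elements, these p-values were 0.310 and 0.187, so the relation did not pass the correction. Without the 2 arrays farthest from the median of element 3635, r was -0.62. Neither orientation held 6 arrays, so r was not computed within one. The other 5 pairs of elements had r between -0.27 and 0.15. With run medians (described below) removed, r was -0.63 for the opr7 pair and -0.61 for opr7 element 9752 with opr8. It lay between -0.30 and 0.41 for the other pairs, so the opr7 pair did not stand apart there. Removal of run medians was planned for the fits, and no plan is stated for its use in correlations.

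The turned ratios of the 2 opr7 elements were not told apart by exact permutation. The turned ratio of element 9752 minus that of element 3635 was -0.25, taken as the gap between the 2 orientation means divided by 2. The difference was negative on 6 of 9 arrays, with an SD of 0.56 between arrays (exact permutation p = 0.206, two-sided, adjusted p = 0.524 over 6 pairs). Of the 6 differences between elements, 0 had an exact permutation p under 0.05, and the smallest p this design allows was 0.0159. At that smallest p, a pair alone could not pass 0.05 after adjustment over 6 pairs, so the adjusted p says little. The difference of opr8 from opr7 element 9752 was 0.19 and from opr7 element 3635 it was -0.066. Neighbours in the order of the 4 turned ratios were not told apart either, with exact permutation p (two-sided) from 0.349 to 0.651.

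**Figure D4:**
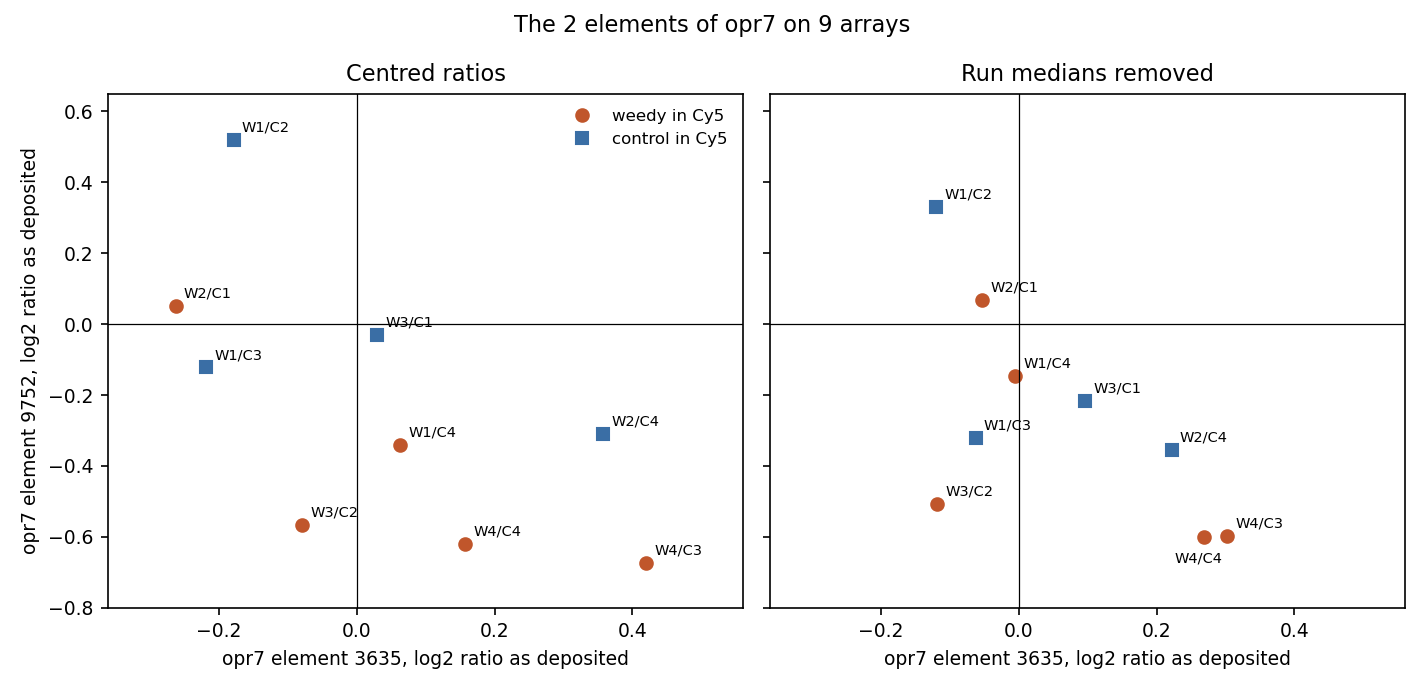
Log2 ratio as deposited of opr7 element 9752 (vertical axis) against opr7 element 3635 (horizontal axis), 1 point per array, labelled by weedy plot W and control plot C, with circles for weedy and squares for control RNA in Cy5. Left, centred ratios (r = -0.64 over 9 arrays); right, after the median of each run of 400 table rows was removed (r = -0.63).

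Averaged per gene and adjusted over 540 named genes, 0 of the 3 genes passed an adjusted p of 0.05, against 0% of all named genes. An unadjusted p under 0.05 was found for 0 of the 3 and for 11.5% of all named genes. The mean of both opr7 elements gave a turned ratio of -0.095 (SE 0.061, 95% interval -0.23 to 0.040, adjusted p = 0.577 in limma). It was -0.051 without control plot 2 and -0.043 with run medians removed, and lay between -0.13 and -0.043 over its 33 alternatives. On the arrays with weedy RNA in Cy5 this mean was negative on each, at -0.11, -0.32, -0.13, -0.14 and -0.23. With control RNA in Cy5 it was 0.17, -0.17, 0.024 and -0.00069. The SD between arrays was 0.11 for this mean, below that of either element. The 2 elements had opposite signs on 4 of the arrays with weedy RNA in Cy5 (r = -0.64 over 9 arrays). Values that run against each other cancel in a mean, so this SD does not measure how precisely opr7 was measured. On the already turned reading, the gene means were -0.20 for opr5 (unadjusted p = 0.0246, adjusted p = 0.440 in limma), -0.090 for the mean of opr7 (adjusted p = 0.653 in limma) and 0.088 for opr8 (adjusted p = 0.729 in limma). opr5 and opr8 have 1 element each, so these are the values of the elements again, with variances moderated over named genes. The share of all named genes with an unadjusted p under 0.05 was not counted on that reading.

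Values of table neighbours moved with those of the opr7 and opr8 elements, and less with those of opr5. The median of the run of 400 consecutive table rows that held an element correlated with the element over 9 arrays at 0.78 for opr7 element 3635, 0.65 for opr7 element 9752, 0.64 for opr8 and 0.38 for opr5. These are descriptions of points that share an array and its hybridisation, and the same correlation was not computed for all elements. The fitted turned ratio of the run median was -0.087 (SE 0.041) for the run of opr7 element 9752, 0.0032 for that of element 3635, 0.044 for that of opr8 and 0.040 for that of opr5. With run medians removed, opr7 element 9752 stood at -0.11 (adjusted p = 0.616 in limma) and opr5 at -0.18 (adjusted p = 0.261 in limma). The part of position in these ratios was not tested further.

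Genes that lie around these enzymes in the pathway were few among those annotated. Of the list for oxylipin synthesis, the 1 measured gene besides the reductases was fad7 (LOC542222), a desaturase that makes linolenic acid in the chloroplast. Its turned ratio was 0.0030 (SE 0.087, adjusted p = 0.988 in limma), positive on 5 of 9 arrays, and on the already turned reading it was -0.089. Of the list for jasmonate signalling, 0 genes were annotated by symbol. Of the list for defence, 4 genes were measured and 0 passed in either direction, with 3 positive and 1 negative. Their median was 0.088, against a median of 0.020 and 43.3% negative over all named genes. The gene of smallest p was the chitinase chn1 (LOC542525), an enzyme that cleaves fungal cell walls, at 0.21 (SE 0.079, adjusted p = 0.375 in limma). On the already turned reading the tally turned round, with 1 positive and 3 negative, a median of -0.11 and 0 genes past the threshold, and chn1 stood at -0.11. The median and share negative over all named genes were not computed on that reading, and 4 genes give no direction for defence. In leaf pools, fewer cells that express a gene and less of its RNA per cell cannot be told apart.

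The named genes whose centred deposited ratios ran most alike were also found, from 537 genes with at least 8 arrays in common. For opr5 they were cyc3 (LOC542305) with r = 0.85, knox7 (LOC732756) with r = 0.80 and abp1 (LOC542232), an auxin binding protein gene, with r = 0.79, each over 9 arrays. For the mean of opr7 they were eIFiso-4E (LOC541708), a translation initiation factor gene, with r = 0.93, pk8-b (LOC732828) with r = 0.93 and LOC542657 with r = 0.90, each over 9 arrays. For opr8 they were rop4 (LOC542739), a small GTPase gene, with r = 0.89 over 9 arrays, LOC542193 with r = 0.82 over 9 arrays and LOC542763 with r = 0.76 over 8 arrays. These are the highest of 537 values each, over few arrays that share dye and plots, and the median r was -0.012 for opr5, -0.031 for opr7 and -0.052 for opr8.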

How the data were processed

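The deposited value table held 1 log ratio, read as log2, per element and array; log base, numerator channel and normalization are not stated, and for the scanner and background correction the sources used here give nothing. RNA was taken from leaf frozen in the field and labelled with a cDNA kit, per the labels' protocols. Elements were named through the supplied platform annotation and a RefSeq table (assembly Zm-B73-REFERENCE-NAM-5.0), from which only symbols and synonyms were taken. Each array was centred on its median. Elements with values on at least 4 arrays of each orientation were fitted (generalised least squares) with terms for treatment and dye and the 8 plots as a random effect. One ratio of plot to array variance, 0.0347, was estimated by restricted likelihood. On the already turned reading the estimate was 0. Variances were moderated with eBayes (limma 3.58.1, R 4.3.3), and Benjamini-Hochberg adjustment ran over the whole table tested. The symbol MNB1b was left out of gene means, which took the variance ratio of the elements on the same reading. The fit was tested on data simulated from its own model, which checks the code and cannot test the plot variance, position or direction of the ratios. Pools are separate plots, but they recur on several arrays. At a ratio of 0.0347 the p-values measure mostly the spread between arrays. With plot variance equal to array variance, the SE was 0.14 for opr5 and 0.16 for opr7 element 9752. Single values were also tested by exact permutation between orientations, which takes arrays as independent. Members, lists and tests were chosen with earlier results of these data known. Named genes were the members, the measured genes of the oxylipin list, the gene of smallest p in another list and the 3 genes most alike each member gene. Alternatives covered centring, scaling, the plot and dye terms, missing values, moderation, array weights, direction, position, and each array and plot left out.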

Additional observations from a re-analysis of the deposited data

Results flagged for a closer look

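An array far from the others of its orientation was found in 2 of 10 checks, both of the number of elements without a value. By chance, about 1 check in 20 finds one. Array 5 with control RNA in Cy5 lacked 9235 elements, among them all 4 opr elements, and array 3 with weedy RNA in Cy5 lacked 5453 and held all 4. None of the 8 checks of opr5, opr7 and opr8 ratios within an orientation found such an array. The part of missing values in the ratios of the opr elements was not tested.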

How the results depend on the processing

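The count of opr elements past the threshold was 0 in all 31 alternatives that gave their values, and that of the 3 gene means was 0 in all 32. Values on all 10 arrays could not be required of them, as 1 array lacks them. opr5 kept a negative sign in 32 of 32 alternatives, from -0.20 to -0.063. opr7 element 9752 kept it in 32 of 32, from -0.34 to -0.11, with a lowest adjusted p of 0.176 (limma, without weedy plot 2). No alternative took Cy3 as the numerator, which would turn the sign of every turned ratio, and many left out part of the same arrays. opr7 element 3635 turned negative in 5 of 32, all with an array or plot left out, where it lay between -0.067 and 0.13. opr8 turned positive in 6 of 32, at 0.088 when read as already turned, at 0.031 when run medians were also removed (added after seeing the data), and between -0.105 and 0.031 with an array or plot left out. The cause was not tested. Over all elements the 2 calls became 1 with arrays scaled, 8 with array weights and 0 with plot variance equal to array variance, on the already turned reading with or without run medians removed, and with the 2 arrays with control plot 4 in Cy5 turned. They lay between 0 and 4 with an array or plot left out. Fitted values of weedy and control plots with the same number had r between -0.61 and 0.21. Both come from a joint fit to all 10 arrays and share its noise, so these r cannot decide whether plot numbers pair the plots. Of plots with the same number, only weedy plot 4 and control plot 4 met on an array. With the number as a replicate block opr7 element 9752 stood at -0.23 and opr5 at -0.13, and 0 opr elements passed.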
